A study of Bos taurus with 12 samples.

Results

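The genes described here are 9 matrix proteases and protease inhibitors of the bovine mammary gland, namely the metalloproteinases MMP1, MMP2, MMP3, MMP9 and MMP14, the urokinase PLAU and the tissue inhibitors TIMP1, TIMP2 and TIMP3. They are defined by symbol among the 12639 named genes of the array, and 25 of the 43653 probes measured them. All cows were multiparous Holsteins in early lactation. Those of the control group (CONT, n = 6) had free access to a lactation diet. In the restricted group (REST, n = 6), barley straw made up 48% of ration dry matter during 4 d, and this feeding began at 24 ± 3 d in milk. On d 3, every cow of both groups received 50 µg of lipopolysaccharide (LPS), a component of the outer membrane of Gram-negative bacteria, by infusion into 1 healthy rear gland of the udder, and that gland was sampled by biopsy 24 h later. All values therefore describe inflamed tissue, no gland without LPS is part of the comparison, and the question it addresses is whether undernutrition changes the inflamed gland. Each cow contributed 1 one-color array and is named here by her number.

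Matrix metalloproteinases are zinc enzymes that are secreted or anchored at the cell surface. They are made as inactive precursors and cut collagens, gelatins, laminins and other matrix proteins once activated. Urokinase converts plasminogen to plasmin, which degrades fibrin and can activate several metalloproteinase precursors, and the TIMP proteins bind the active enzymes and block them. In the mammary gland this system remodels the matrix around alveoli during growth and involution, and neutrophils that enter an infected udder carry MMP9 in their granules.

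The arrays were first compared with each other, since 3 slides carried them in an unbalanced way. On slide 1 there were 3 CONT cows and 1 REST cow, on slide 2 the reverse, and slide 3 was balanced with 2 cows of either diet. The 75th percentile of spot intensity, which was used to scale each array, ran from 577 to 1184 in CONT and from 387 to 1082 in REST, with the lowest value for REST cow 0049. Between 57.6 and 76.0% of spots in CONT and between 63.2 and 78.2% in REST were well above background. The negative controls, as median minus local background, were brighter on slide 1 (11.96 to 27.9) than on the other slides (-1.78 to 6.30). Markers of luminal epithelium, 8 of 9 matched and all detected, had a mean log2 level of 6.05 to 6.66 in CONT and 6.17 to 6.87 in REST, which fits the labelled tissue.

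In the comparison of REST with CONT (limma's moderated test, Benjamini-Hochberg adjustment over all probes), 0% of the 43653 probes passed an adjusted p of 0.05, and no member probe did. The lowest adjusted p over all probes was 0.777, and the Westfall-Young adjustment over 100 splits of the cows, which the study's methods name, also called 0 probes, with a lowest value of 0.25. The study itself, which ran that adjustment in GeneSpring, reports differentially expressed genes under 0.05. Its table of them names no member, and the source of this disagreement was not tested. Before adjustment, 2.62% of all probes had a p under 0.05, 1.74% higher and 0.875% lower in REST. Of the 25 member probes 1 did, a probe of MMP1 with the higher level in REST. The diet groups did not overlap for 0.128% of all probes and for 0 of the 25 member probes. A lower mean in REST was found for 53.9% of all probes and for 14 of the 25 member probes. Taking for each gene its brightest probe, the median difference of the 9 genes was -0.08 on the log2 scale, beside -0.03 over all named genes.

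Detection separated the members. Signal well above background was found in every cow for 12 of the 25 probes, in some cows for 11 and in none for 2. TIMP1, TIMP2 and TIMP3 were detected by every one of their probes in every cow, MMP2, MMP9 and PLAU by at least 1 probe in every cow, MMP1 and MMP14 in 11 of 12 cows by their brightest probe, and MMP3 was essentially below background. All levels below are log2 intensity minus the 75th percentile of the array, so that a level of 0 equals that percentile. Levels of different genes come from different probes and are not compared. The samples were pieces of whole tissue, in which fewer cells of a type and less RNA per cell cannot be told apart.

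**Figure D1:**
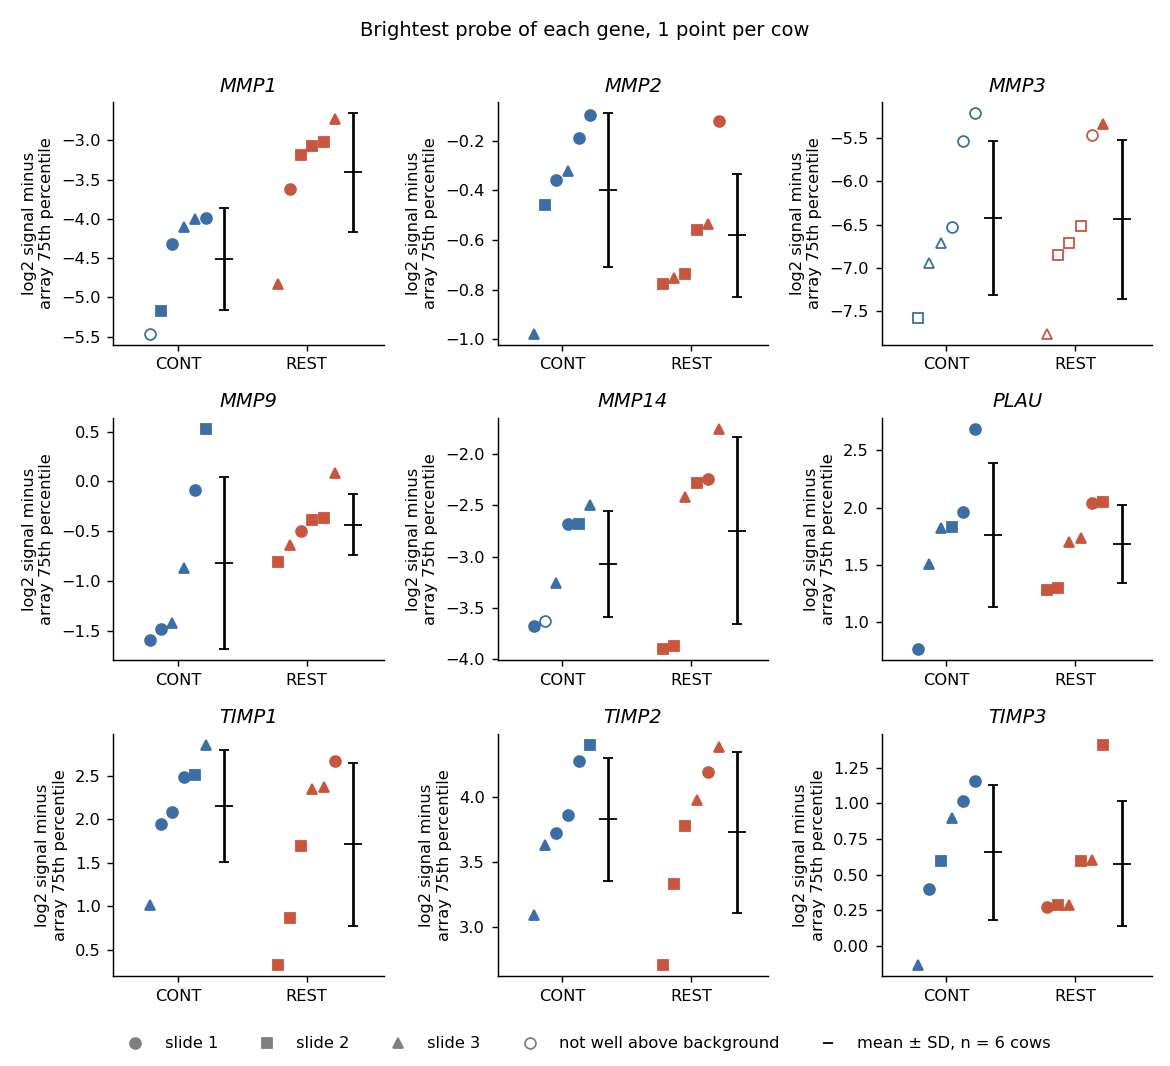
Log2 level (signal minus the 75th percentile of the array) of the brightest probe of each gene, 1 point per cow, in order of level within each diet group. Point shape gives the slide, hollow points were not well above background, and bars are mean ± SD (n = 6). The groups overlap in all 9 panels, and 5 of 6 REST cows lie above all CONT cows for MMP1.

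MMP1 (NCBI Gene 281308), the interstitial collagenase that makes the first cut in fibrillar collagen, was the one member with an unadjusted p under 0.05. By its brightest probe, the levels of CONT cows ran from -5.46 to -3.98 with a median of -4.22, and those of REST cows from -4.83 to -2.73 with a median of -3.13. In 5 of 6 REST cows the level was above that of every CONT cow, and only REST cow 1058 was lower. The difference of the means was 1.10 (SE 0.38), a 2.14-fold higher level in REST with a 95% interval of 1.22 to 3.78, and limma's adjusted p was 1. The exact two-sided permutation test over the 924 splits of the cows, the source of each p called exact below, cannot go under 0.00216 and gave p = 0.026. This p is that of 1 probe and was not adjusted for the 25 probes.

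The signal behind this difference was weak, since these levels lie far below the 75th percentile and the probe was not well above background in CONT cow 1024. A further MMP1 probe, detected in 4 cows of each diet, had a difference of 0.86 (SE 0.55) with an exact p of 0.186, and 4 REST cows were above all CONT cows. CONT cow 9040, at -7.15 and not well above background, carried much of it, since the difference without that cow was 0.37, and within slides 1, 2 and 3 it was 0.15, 3.63 and -0.05. The dimmest probe was well above background on 1 CONT array and no REST array, so no fold was derived from it. With normexp background correction the difference was 0.27, and as the mean of the 3 probes it was 0.45, and in both settings the unadjusted p by limma was no longer under 0.05 (0.359 and 0.261). The difference of the brightest probe kept its sign on each slide, with 0.97, 2.09 and 0.28 on slides 1, 2 and 3, where slide 2 rests on the single CONT cow 9040 and slide 1 on the single REST cow 0078.

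MMP3 (NCBI Gene 281309), stromelysin 1, which cuts proteoglycans and laminin and can activate other metalloproteinases, is encoded next to MMP1, with 0 genes between them in the gene order of the RefSeq table (assembly ARS-UCD2.0). Unlike MMP1, it was near the detection limit throughout. Of its 3 probes 2 never rose well above background, and the other one did so in 1 REST cow only. No fold is given for it, and a difference between diets that stayed below background could not have been seen.

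The gelatinases MMP2 and MMP9 degrade denatured collagen and the type IV collagen of basement membranes. MMP2 (NCBI Gene 282872), which stromal cells produce in many tissues, was the steadiest member, with an SD within diet groups of 0.28, above that of 35.3% of the probes detected on all arrays. Levels ran from -0.98 to -0.10 in CONT with a median of -0.34, and from -0.78 to -0.12 in REST with a median of -0.65. The ranges overlapped, and 5 of 6 REST cows were below the CONT mean. The difference was -0.18 (SE 0.18), a ratio of REST to CONT of 0.882 with a 95% interval of 0.672 to 1.16 and an exact p of 0.281. It was -0.040 with slide as a block and -0.30 without CONT cow 8027.

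The next MMP2 probe, also detected on all arrays, had the lowest p of the member probes with a lower mean in REST. Its levels ran from -1.99 to -1.13 with a median of -1.42 in CONT, and from -2.21 to -1.28 with a median of -1.90 in REST, and 3 REST cows lay below all CONT cows. The difference of -0.39 (SE 0.20) had an exact p of 0.067. It reached an unadjusted p under 0.05 by limma only after quantile normalization (0.041), without CONT cow 8027 (0.0242) and without REST cow 0078 (0.0245). Within slides 1, 2 and 3 the difference was -0.0041, -0.55 and -0.22. The other 2 MMP2 probes were well above background on 6 and on 2 arrays in all, and had differences of 0.18 (SE 0.26) and 0.40 (SE 0.54).

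MMP9 (NCBI Gene 282871), gelatinase B, is stored in neutrophil granules. CONT levels ran from -1.60 to 0.52 with a median of -1.15, and REST levels from -0.81 to 0.09 with a median of -0.45. CONT cow 9040 was the highest of all 12 at 0.52 and CONT cow 1024 had -0.09, whereas the other 4 CONT cows were lower than every REST cow. The SD was 0.87 in CONT and 0.31 in REST for this probe, but 1.57 and 1.70 for a dimmer one, and neither difference in spread was tested.

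For MMP9 all 6 REST cows were above the CONT mean, with a difference of 0.39 (SE 0.35), a 1.31-fold ratio with a 95% interval of 0.771 to 2.22 and an exact p of 0.316. Without CONT cow 9040 the difference was 0.66 with an unadjusted p of 0.0381 by limma. Other settings made the difference smaller. It was 0.23 without CONT cow 0055, 0.26 without CONT cow 1076, 0.27 without CONT cow 8027 and 0.20 with slide as a block. Within slides it was 0.56 and 0.87 on slides 1 and 3 and -1.05 on slide 2, where cow 9040 is the single CONT cow. That dimmer MMP9 probe, detected in 2 CONT and 3 REST cows, had a difference of 0.46 (SE 0.85), and the dimmest was well above background on 1 CONT array only.

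MMP14 (NCBI Gene 281915), a metalloproteinase anchored in the cell membrane that activates the MMP2 precursor together with TIMP2, was measured by 1 probe. CONT levels ran from -3.68 to -2.50 with a median of -2.97, and REST levels from -3.91 to -1.76 with a median of -2.35. REST cows fell on both sides of the CONT range, with 4 above all CONT cows and the other 2 below all of them. The difference of 0.32 (SE 0.40) had a 95% interval of -0.54 to 1.19 on the log2 scale and an exact p of 0.444. It was 0.12 with normexp background correction, and ran from 0.13 without REST cow 1018 to 0.56 without REST cow 1015.

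PLAU (NCBI Gene 281408), urokinase, ran from 0.76 to 2.68 with a median of 1.83 in CONT and from 1.28 to 2.04 with a median of 1.71 in REST. All REST cows lay within the CONT range. The difference was -0.08 (SE 0.28), and the 95% interval of the ratio, 0.619 to 1.44, includes both a lower and a higher level in REST (exact p = 0.768). The 2 dimmer PLAU probes were well above background on 5 and on 6 arrays in all and had differences of -0.18 (SE 0.41) and 0.07 (SE 0.47).

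**Figure D2:**
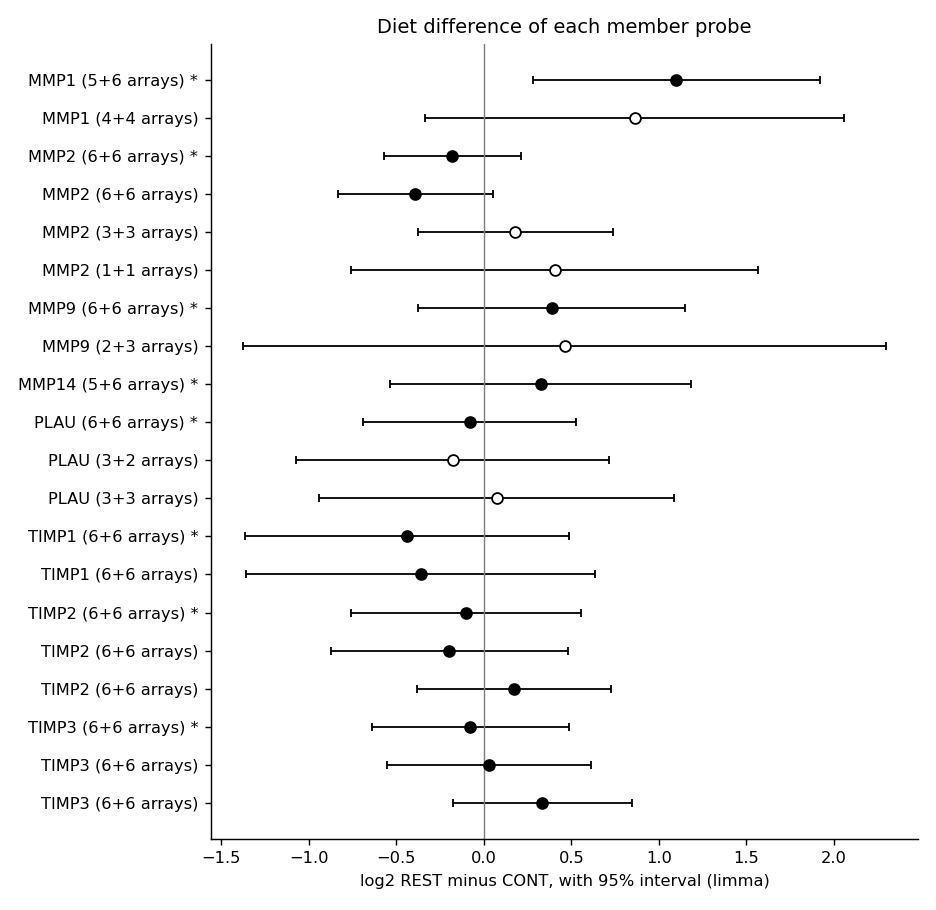
Difference between diets (log2 REST minus CONT) of the member probes well above background on at least 1 array of each diet, with the 95% interval from limma. Labels give the number of CONT and REST arrays well above background, a star marks the brightest probe of a gene, and hollow points were detected on fewer than 11 arrays. The interval of the brightest MMP1 probe, 0.28 to 1.92, is the only one that excludes 0.

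All 8 probes of the inhibitors were detected in every cow, and none had a diet difference beyond the spread between cows. TIMP1 (NCBI Gene 282092), which binds the MMP9 precursor and is induced by cytokines in many cell types, was the most variable member among those detected on all arrays. Levels ran from 1.02 to 2.85 in CONT with a median of 2.28, and from 0.32 to 2.67 in REST with a median of 2.02. REST cows 0049 and 1015 were the lowest of all at 0.32 and 0.86, and CONT cow 0015 followed at 1.02. The difference of -0.44 (SE 0.43) corresponds to a ratio of 0.739 with a 95% interval of 0.389 to 1.40 and an exact p of 0.361.

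The other TIMP1 probe gave -0.36 (SE 0.46) with the same 2 REST cows below all CONT cows. Both cows were on slide 2. Within slides 1, 2 and 3 the difference of the brightest probe was 0.50, -1.54 and 0.42, so that only slide 2 had the lower mean in REST. It was -0.14 with slide as a block, -0.16 without REST cow 0049 and -0.27 without REST cow 1015. The level of the highest cow was 5.76 times that of the lowest, and the spread within diet groups (SD 0.80) was above that of 92.8% of the 24086 probes detected on all arrays.

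TIMP2 (NCBI Gene 282093), the inhibitor that forms a complex with MMP14 and the MMP2 precursor, ran from 3.09 to 4.40 in CONT with a median of 3.79 and from 2.71 to 4.38 in REST with a median of 3.88. As for TIMP1, REST cow 0049 was the lowest of the 12. The difference was -0.10 (SE 0.30), with a ratio of 0.933, a 95% interval of 0.592 to 1.47 and an exact p of 0.760. The other 2 TIMP2 probes gave -0.20 (SE 0.31) and 0.17 (SE 0.26), and within slides 1, 2 and 3 the brightest gave 0.24, -1.13 and 0.82.

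TIMP3 (NCBI Gene 282094), which stays bound to the matrix and also blocks ADAM proteases such as the one that releases TNF, had levels from -0.14 to 1.16 in CONT with a median of 0.75 and from 0.27 to 1.41 in REST with a median of 0.44. In REST, 5 cows were below the CONT mean and cow 1015 was above all CONT cows. The difference was -0.08 (SE 0.26) with an exact p of 0.768. The 2 dimmer TIMP3 probes, both detected on all arrays, gave 0.03 (SE 0.27) and 0.33 (SE 0.24), so the 3 probes did not share a direction.

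The change of a protease relative to its inhibitor was then taken within each cow. MMP1 minus TIMP1, the widest of 6 pairs taken, was higher in REST by 1.54 (SE 0.73) on the log2 scale, with 5 of 6 REST cows above the CONT mean and 3 above all CONT cows. It was 0.47, 3.63 and -0.15 within slides 1, 2 and 3, so that slide 2 with its single CONT cow carries it and the balanced slide turns its sign. MMP9 minus TIMP1 was higher by 0.82 (SE 0.53), with 4 of 6 REST cows above the CONT mean, and by 0.06, 0.50 and 0.45 within the slides. MMP14 minus TIMP2 was higher by 0.42 (SE 0.35), with 5 of 6 REST cows above the CONT mean, and gave 0.84, 0.45 and -0.03 within the slides. MMP2 minus TIMP2 differed by -0.08 (SE 0.30), MMP2 minus TIMP3 by -0.10 (SE 0.25) and PLAU minus TIMP1 by 0.36 (SE 0.42), and each of the 3 had both signs among the slides. These differences of log levels add the spread of both probes, were not tested and say nothing of the ratio of the proteins.

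How the members varied together was examined over the 12 cows after removal of the diet means, for the 8 members other than MMP3, which makes 28 pairs. The highest correlation was that of TIMP1 with TIMP2, with r = 0.87 and an adjusted permutation p of 0.0067 (100000 resamples, Benjamini-Hochberg over the 28 pairs), and Spearman's rho of 0.71 with an adjusted permutation p of 0.166. It was 0.70 within CONT and 0.96 within REST, 0.67 without the 2 cows whose TIMP1 lay farthest from the median, and 0.88 with slide means also removed. Within a slide no r was computed, since each holds 4 arrays. Of the 8999 genes compared, 1.82% followed TIMP2 at least as closely as TIMP1 did. The diet means were fitted before permutation, which makes these p-values and the adjusted permutation p-values below somewhat too small.

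Behind it came MMP14 with TIMP1, with r = 0.76, rho = 0.81 and adjusted permutation p of 0.064 and 0.057, and 0.52 without the 2 farthest cows. For this pair r was 0.40 within CONT and 0.90 within REST, a difference that was not tested. MMP1 and MMP9 ran in opposite directions, with r = -0.74, rho = -0.64 and adjusted permutation p of 0.064 and 0.236. This was -0.86 within CONT and -0.84 within REST, but -0.44 under normexp background correction. With slide means also removed it was -0.84 with an adjusted permutation p of 0.019, and 5 of 28 pairs then had an adjusted p under 0.05, beside 1 of 28 without that step. The other added pairs were MMP14 with TIMP1, MMP14 with PLAU (r = 0.69) and MMP9 with TIMP2 (r = 0.77). Slide means were fitted before permutation as well, which makes the p-values of this setting smaller than they should be. The rise in the count therefore cannot be read as more relations between members. Pairs with a dim probe were less steady under normexp background correction, which also gave 0.41 for MMP14 with TIMP1 and -0.14, the opposite sign, for MMP14 with PLAU, beside 0.88 for TIMP1 with TIMP2. For TIMP3, r with the other members ran from -0.46 for MMP14 to 0.38 for MMP2, and the latter joins 0.94 within CONT and -0.38 within REST, a difference that was not tested.

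**Figure D3:**
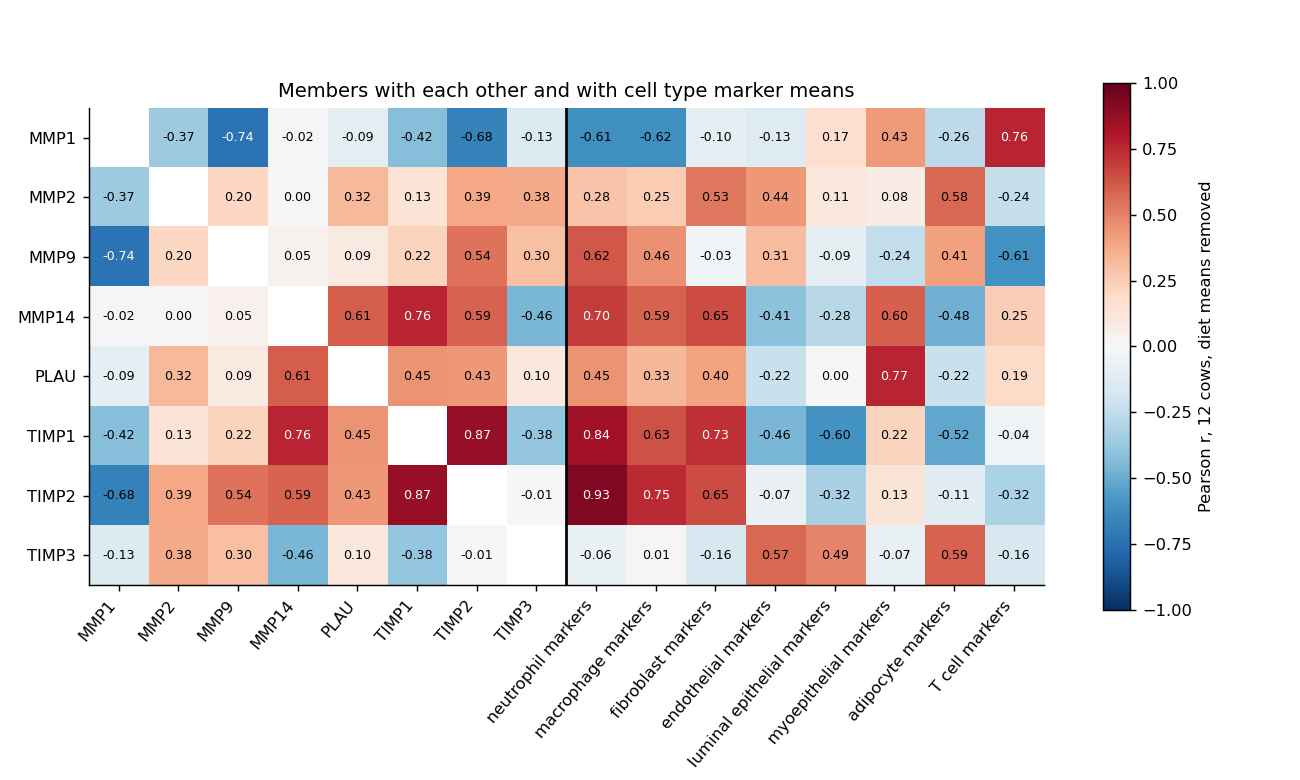
Pearson r between members, left of the line, and between members and the mean log2 level of cell type marker lists, right of the line, over 12 cows with the diet means removed. TIMP1 and TIMP2 correlate with each other (0.87) and with the neutrophil marker mean (0.84 and 0.93), whereas TIMP3 gives -0.06 with the neutrophil marker mean.

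Leukocyte markers were set beside the members because neutrophils enter the udder after LPS. Of 15 neutrophil markers 13 were on the array under their symbol and 9 were detected in all 6 cows of 1 diet or both. Their mean level ran from -0.11 to 1.50 in CONT and from -1.31 to 1.28 in REST, and none of them had an unadjusted p under 0.05 for diet. CD177 was well above background on no array.

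TIMP2 followed this mean closely, with r = 0.93 and rho = 0.94, both with an adjusted permutation p of 0.0024 over 80 relations of members with marker lists and array measures. It was 0.81 within CONT, 0.99 within REST and 0.91 without the 2 farthest cows. TIMP1 gave r = 0.84 with an adjusted permutation p of 0.013, and rho = 0.78 with an adjusted p of 0.111. That r was 0.58 within CONT, 0.95 within REST and 0.72 without the 2 farthest cows. For MMP14 r with the neutrophil mean was 0.70 with an adjusted permutation p of 0.107, and 0.43 without the 2 farthest cows, 0.32 within CONT and 0.35 under normexp background correction. For MMP9 it was 0.62 with an adjusted permutation p of 0.157, and for MMP1 it was -0.61 with the same adjusted p. The marker list closest to MMP1 was that of T cells, 6 of 6 detected, with r = 0.76, rho = 0.71 and adjusted permutation p of 0.052 and 0.136, and r was 0.77 within CONT and 0.76 within REST but 0.22 under normexp background correction. The mean level of that list ran from 0.95 to 1.30 in CONT and from 0.94 to 1.44 in REST. Its gene with the lowest p, CD3D, differed by 0.60 (SE 0.26, exact p = 0.056), and 3 of the 6 had a higher mean in REST. The part of T cells in the MMP1 values was not tested. PLAU had a relation of similar size with myoepithelial markers, with r = 0.77, rho = 0.73 and adjusted permutation p of 0.052 and 0.136. That r was 0.89 within CONT and 0.49 within REST, 0.43 without the 2 farthest cows and 0.82 under normexp background correction.

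The single neutrophil markers did not all move the same way, and 7 of 9 had a positive r with TIMP2 and with TIMP1. With TIMP2, r was 0.92 for CXCR1, a receptor for interleukin 8, and 0.89, 0.87 and 0.86 for S100A12, S100A8 and S100A9, calcium-binding proteins abundant in neutrophils, but -0.26 for CXCR2 and -0.46 for ELANE, neutrophil elastase. With TIMP1 it was 0.92 for S100A9 and -0.76 for ELANE. CXCR1, which is part of the marker mean, was well above background in 6 CONT and 5 REST cows, with a lowest REST level of -6.26. Macrophage markers, with r = 0.75 for TIMP2 and 0.63 for TIMP1, and fibroblast markers, with 0.65 and 0.73, had adjusted permutation p from 0.052 to 0.129. Within CONT these relations were weak, at 0.27 and 0.10 for macrophage and 0.22 and -0.05 for fibroblast markers with TIMP2 and TIMP1, and within REST they ran from 0.78 to 0.92, a difference that was not tested. With luminal epithelial markers TIMP1 gave r = -0.60 and rho = -0.76, with adjusted permutation p of 0.167 and 0.131, but r = 0.20 after quantile normalization.

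A measure of the whole array moved with them too. TIMP1 correlated with the log2 75th percentile of the array with r = 0.90 and an adjusted permutation p of 0.0024, closer than all but 14 of 9000 genes, and TIMP2 did so with r = 0.70 and an adjusted permutation p of 0.107. With that percentile regressed out, an alternative chosen after seeing the data, TIMP2 kept r = 0.88 with the neutrophil markers and TIMP1 kept 0.79, with adjusted permutation p of 0.0116 and 0.0498, and TIMP1 with TIMP2 was 0.77 with 0.0326. The percentile was fitted before permutation as well, which makes these p-values too small. Whether the relations pass 0.05 in this setting cannot be read from them. At least as close to the neutrophil mean as TIMP2 were 1.02% of 9000 genes, and 3.18% were at least as close as TIMP1. The part of leukocyte content and of array signal in the spread of both inhibitors was not tested.

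**Figure D4:**
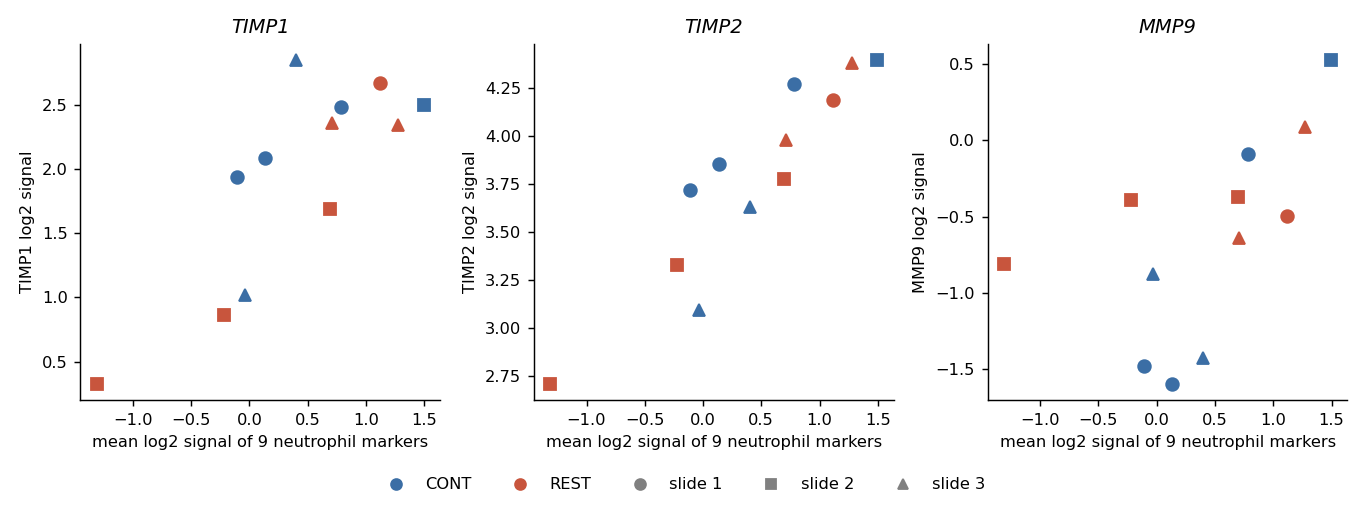
Log2 level of TIMP1, TIMP2 and MMP9 in each cow against the mean log2 level of 9 neutrophil markers. Color gives the diet and shape the slide. REST cow 0049 lies at the low end for both inhibitors, with a marker mean of -1.31, and for these inhibitors cows of both diets lie along the same band. For MMP9 they do not. For example, CONT cow 1076 has an MMP9 level of -1.48 at a marker mean of -0.11, and REST cow 1015 has -0.39 at -0.22.

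For the 6 members detected in every cow, the genes with the most similar pattern were sought among 9000 other genes detected on all arrays, by Pearson r over the 12 cows with diet means removed, as a description. For TIMP2 they were SLC16A3, a lactate transporter, at 0.98, with ENTPD1 and the glycolytic enzyme GAPDH at 0.96. For TIMP1 they were IL13RA1, FZD3 and LRRC8D, at 0.96 to 0.97, where 1% of all genes already exceeded 0.92. For MMP2 the first was COL5A3, a chain of type V collagen, at 0.92, followed by DNAJC5 and PHETA2. For MMP9 they were LYRM2, SHMT2 and H1-2, for PLAU CYP39A1, RNF41 and PDLIM7, and for TIMP3 IRX6, ATP13A1 and PIM1, all between 0.83 and 0.90.

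The other genes of the system were taken from 8 lists of 157 genes, of which 121 were on the array under their symbol. Of these, 6 (4.96%) had an unadjusted p under 0.05 by limma, all lower in REST, and none passed adjustment. Such a p was found for 2.64% of the 12639 named genes in either direction, and for 0.875% of all probes with a lower mean in REST. Lower means in REST were found for 77 and higher means for 44, where 53.9% of all probes had a lower mean. The median difference was -0.06, beside -0.03 over all named genes. The 6 genes lay in 3 lists. With slide as a block 1 of the 6, MMP16, kept an unadjusted p under 0.05 by limma, and FN1, COL1A1, COL1A2, IL1A and PTGS2 did not. With normexp background correction FN1 was the only one that kept it. All 6 had a lower mean in REST in both settings. With slide as a block the differences were -0.62 for FN1, -0.39 for COL1A1, -0.45 for COL1A2, -0.55 for IL1A and -0.48 for PTGS2, each smaller than the values without it that follow.

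Among matrix substrates, the proteins that the members cut, 3 of 16 genes had an unadjusted p under 0.05. Fibronectin, FN1, differed by -0.94 (SE 0.35, exact p = 0.019). The chains of type I collagen, a substrate of MMP1, differed by -0.72 (SE 0.31, exact p = 0.065) for COL1A1 and by -0.65 (SE 0.27, exact p = 0.032) for COL1A2. Without REST cow 0049 they differed by -0.53 and -0.44, with unadjusted p by limma of 0.092 and 0.060. Several other single cows left out also took the p of each past 0.05. After quantile normalization COL1A1 gave -0.69 with an unadjusted p of 0.054 by limma. Means in REST were lower for 12 of the 16, beside 53.9% of all probes, and the median difference was -0.24, beside -0.03 over all named genes. Fibroblast markers, a list that shares COL1A1 and COL1A2, had means of 1.93 to 2.18 in CONT and 1.08 to 2.27 in REST, and LUM, lumican, differed by -0.84 (SE 0.24, exact p = 0.0087). All 10 matched and 9 were detected in all cows of 1 diet or both, and 6 had a lower and 4 a higher mean in REST, among the latter PDGFRA at 0.04 and FAP at 0.11. All 7 endothelial markers had a higher mean in REST, among them VWF, von Willebrand factor, at 0.79 (SE 0.30, exact p = 0.0043). CONT cow 8027 stood apart in that list, with a mean level of -1.07 beside 0.69 to 0.93 in the other CONT cows, and the difference of the list mean was 0.37 with it and 0.06 without it. The part of either cell type in the matrix values was not tested.

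Among the inducers of protease genes and their receptors, 2 of 14 genes had an unadjusted p under 0.05. IL1A, a cytokine that induces MMP1 and MMP3 in fibroblasts, differed by -0.77 (SE 0.30, exact p = 0.017), and was detected in 5 CONT and 3 REST cows. PTGS2, the inducible cyclooxygenase, differed by -0.80 (SE 0.29, exact p = 0.026), and was detected in 6 CONT and 5 REST cows. TNF differed by -0.90 (SE 0.52, exact p = 0.147) and the oncostatin M receptor OSMR by -0.59 (SE 0.39, exact p = 0.197).

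In the plasminogen system 0 of 17 genes had an unadjusted p under 0.05. PLAT, the tissue plasminogen activator, differed by 0.39 (SE 0.22, exact p = 0.0996), the urokinase receptor PLAUR by -0.47 (SE 0.54, exact p = 0.455), and SERPINF2, the inhibitor of plasmin, by -1.81 (SE 1.06, exact p = 0.160). SERPINF2 was detected in 6 CONT and 5 REST cows. Among 15 other protease inhibitors there were 0 as well, and the widest differences among the 13 detected in all cows of 1 diet or both were those of TIMP4 at 1.15 (SE 0.60, exact p = 0.076), alpha-2-macroglobulin A2M at 0.49 (SE 0.25, exact p = 0.084) and SERPINF1 at -0.47 (SE 0.28, exact p = 0.139). TIMP4 was lowest in CONT cow 8027, at -2.16, and without that cow its difference was 0.58.

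Of 9 other metalloproteinases 4 were well above background on no array and 1 had an unadjusted p under 0.05, MMP16, which was well above background on 1 CONT array and no REST array and gets no fold. MMP15, MMP19 and MMP23 were detected, with differences of 0.12, 0.09 and -0.26. ADAM and ADAMTS proteases gave 0 of 18, with ADAMTS8 at -0.48, ADAMTS15 at -0.39 and ADAM12 at 0.23. Protease partners gave 0 of 11, with THBS1 at -0.62, the hyaluronan receptor CD44 at -0.58 and heparanase HPSE at 0.39, and transcription factors of protease genes 0 of 21, with NFKB2 at -0.52, FOSB at 0.48 and EGR1 at 0.36. HPSE was detected in 5 CONT and 6 REST cows.

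**Figure D5:**
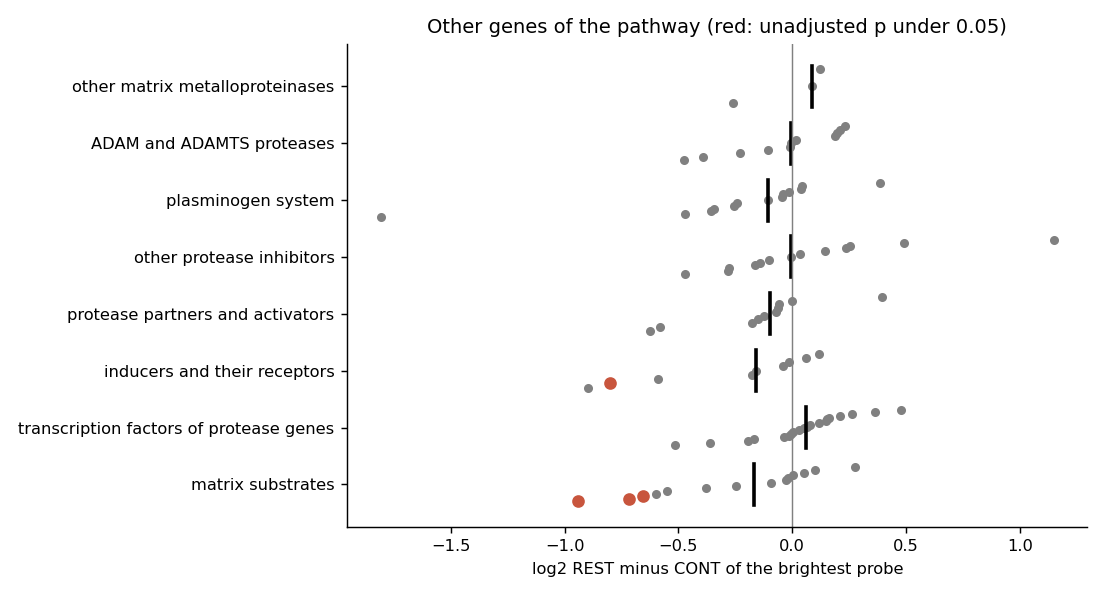
Difference between diets (log2 REST minus CONT) of the brightest probe of each pathway gene that all 6 cows of 1 diet or both showed well above background, by list. Vertical bars are list medians and red points have an unadjusted p under 0.05 by limma. The red points are FN1, COL1A1, COL1A2 and PTGS2, and MMP16 and IL1A are not drawn because they were dimmer. PTGS2 is drawn through its 6 CONT arrays and was well above background on 5 REST arrays.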

How the data were processed

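RNA of 12 mammary biopsies (100 ng per array) was hybridized to Agilent one-color bovine arrays. The authors deposited Feature Extraction 11.0.1.1 scanner output, whose processed signal is a background-subtracted intensity. From it, outlier spots were left out, log2 intensity minus the 75th percentile of each array was taken, spots of a probe were averaged, and diets were compared with limma 3.58.1 in R 4.3.3 without covariates (lmFit, eBayes, Benjamini-Hochberg over 43653 probes). The model was also run on simulated data, and no outcome of that is given here. Each gene is represented by its brightest probe over the 12 arrays. Intensities carry no counts, so that the number of arrays limits the precision. Array names were matched to RefSeq symbols. The array design and the reference table use different builds, and no coordinates are given.

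All member probes are named. Pathway genes are named when their unadjusted p was under 0.05 or when they were among the 3 widest differences of a list that were well above background on every array of 1 diet. PTGS2, SERPINF2 and HPSE met that filter only through the diet with the higher mean. Cell type genes are named by the lowest p. As a departure from that rule, single neutrophil markers, CD177, PDGFRA and FAP were chosen after their values were seen. Members, lists and tests were chosen with earlier results of these data known. Permutation tests used scipy 1.17.1. Alternatives were quantile normalization, normexp (offset 50), the authors' value table, a filter on dim probes, outlier spots kept, slide as a block, an intensity trend, the mean over probes, Westfall-Young adjustment, slide means removed and leaving out each cow.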

Additional observations from a re-analysis of the deposited data

Results flagged for a closer look

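In 3 of 28 diet groups of 6 cows, taken over the 14 member probes well above background on at least 11 arrays, a single cow stood apart from the rest of its group by Dixon's test. Chance marks about 1 in 20 groups. For the brightest MMP2 probe, REST cow 0078 had -0.121, while the other REST cows lay between -0.778 and -0.536. For the dimmest TIMP2 probe, CONT cow 0015 had -0.762 beside 0.181 to 0.735. For the brightest TIMP3 probe, REST cow 1015 had 1.41 beside 0.273 to 0.604. None of these cows stood apart in the same way at another member probe.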

How the results depend on the processing

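No setting brought a probe to an adjusted p of 0.05. The number of member probes with an unadjusted p under 0.05 was 2 after quantile normalization, 0 with normexp and 1 to 2 when a cow was left out. For pathway genes it was 1 with normexp, 2 with slide as a block, and 4 to 10 when a cow was left out, with 10 without REST cow 0078.

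Directions of small differences turned. As the mean over probes, MMP2 gave 0.0027, MMP9 -0.024 and TIMP3 0.10. This mean takes in dim probes. For MMP9 it includes the probe at -0.92 that was well above background on 1 CONT array only. For MMP2 it includes the probes at 0.18 and 0.40, well above background on 3 and on 1 array of each diet. With slide as a block, PLAU gave 0.0013 and TIMP2 0.062. Within slides 1 and 3, MMP2 gave 0.093 and 0.0051, PLAU 0.23 and 0.048, TIMP1 0.50 and 0.42, and TIMP2 0.24 and 0.82. Within slide 2, MMP9 gave -1.05, MMP14 -0.67 and TIMP3 0.17, and TIMP3 gave 0.067 within slide 3. With a cow left out, PLAU ran from -0.28 to 0.10, turning without CONT cow 0055, TIMP2 from -0.25 to 0.10, turning without CONT cow 9040 or REST cow 0049, and TIMP3 from -0.25 to 0.022, turning without CONT cow 1024. TIMP1 ran from -0.66, without CONT cow 0015, to -0.16, without REST cow 0049, and MMP1 from 0.91 to 1.38. Pairs of members with an adjusted p under 0.05 numbered 5 with slide means removed and 3 with the array percentile regressed out. Both steps were fitted before permutation, which makes those p-values too small, so these counts cannot be compared with that of the main setting. The correlation of TIMP1 with neutrophil markers ran from 0.73, without REST cow 0049, to 0.88. The causes of these shifts were not tested. Signal over background limits MMP1, MMP3 and MMP14. No paired analysis was possible because the labels give the cows no numbers shared between diets.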
